A study of Mus musculus with 24 samples.

Results

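The TGF-β and BMP family is described here across postnatal maturation of the mouse cochlea, with and without the α9 nicotinic acetylcholine receptor subunit. Members were taken by symbol. A gene was included if its symbol began with Bmp, Tgfb, Smad, Inhb, Acvr or Gdf, or if it was Nog, Chrd, Grem1, Fst, Twsg1, Ltbp1, Ltbp2, Ltbp3, Id1, Id2 or Id3. This gave 59 of the 18194 genes that the array's annotation names singly. Each gene was read from 1 probe set, the one with the highest mean signal over all arrays, and the family holds 126 probe sets in all. The mean signal of 45 of the 59 members was above the median of all probe sets. The others, among them Nog, Smad9, Gdf3, Acvrl1, Grem1, Gdf9 and Inhbc, were not above it, so their differences below rest on low signals. Cochleae of wild type mice and of α9−/− mice, in which the Chrna9 gene is constitutively lost, were collected at P3, P7, P13 and P60. Both genotypes were on a 129S6 x CBA/CaJ background that had been crossed back to CBA/CaJ. Each of the 24 arrays carried RNA pooled from several mice, with 3 pools per genotype and age, so the tests measure the spread between pools. The comparisons ask how the signaling genes change as hearing matures, and whether loss of α9 alters them.

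TGF-β family ligands are secreted as dimers and are held in check outside the cell. Some latent TGF-β binding proteins store TGF-β in the matrix, and antagonists such as noggin and chordin bind BMPs directly. Free ligand joins type I and type II receptor kinases, which phosphorylate receptor-activated SMADs. These enter the nucleus with the common SMAD4, while inhibitory SMADs damp the pathway and Id genes are among the classical BMP targets. In the inner ear BMP signaling is known for its part in patterning the sensory epithelium, and in the surrounding capsule both branches take part in cartilage and bone formation.

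The 59 members comprised 3 TGF-β ligands, 9 BMP ligands, 6 GDF ligands, 4 inhibin/activin subunits, 3 latency proteins, 6 extracellular antagonists, 7 type I and 4 type II receptors, 1 co-receptor, 5 receptor-activated SMADs, 1 common SMAD, 2 inhibitory SMADs and 3 Id targets. The remaining 5 genes share the symbol but not the role: Bmp1, Bmp2k, Tgfbi, Tgfb1i1 and Tgfbrap1. The latency proteins, Ltbp1, Ltbp2 and Ltbp3, were grouped by name.

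The libraries were not uniform. In 19 arrays the 3′ control probe set of Gapdh, a glycolytic enzyme, lay above the 5′ set by at most 2.43 on the log2 scale. In the other 5 arrays the difference was 6.30 to 7.69. At P3 these were the first wild type array and the second α9−/− array. At P13 and P60 only wild type was affected, with replicates 1 and 2 at P13 and replicate 1 at P60. Added poly-A control transcripts averaged above 8 on the log2 scale in 14 arrays, 4.66 to 5.32 in 8, and 7.11 and 7.17 in 2 arrays at P7. The cochlear markers Otos, Coch, Gjb2, Gjb6, Tecta and Otog, and the hair cell gene Myo7a, lay above the array median in 24 of 24 arrays. Slc26a5 and Pou4f3, also hair cell genes, did so in 0 of 24, as did Chrna9 itself, whose probe set cannot check the genotype at that level. At P13 the deposited array medians were 6.73 to 6.89, above the 6.50 to 6.66 of the other ages, so ages were compared after quantile normalization over all arrays, and all age values below are log2 signals on that scale. In these bulk extracts fewer cells of a type and less RNA per cell cannot be told apart.

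Between P3 and P60 the family fell more often than it rose. With the genotypes averaged, 21 members were lower and 4 were higher at P60 (limma, adjusted p under 0.05), or 35.6% and 6.78% of the members, beside 18.8% and 16.9% of all genes. The median difference was -0.33 log2 over the 59 members and -0.06 over all genes. All 3 Ltbp genes fell, as did 6 of 22 ligands, whereas receptors went both ways, with 3 of 12 lower and 2 higher. Deposited values gave 3 higher and 20 lower. With those 5 arrays left out 27 members were called, 20 of them among the 25. Bmp2, Acvr1b, Smad9, Id2 and Tgfb1i1 no longer passed, and Nog, Smad5, Twsg1, Smad2, Gdf2 and Bmpr1a then passed as lower and Tgfbrap1 as higher. The share of all genes under these alternatives is not given, so their counts are not read as particular to the family. The same holds for counts on deposited values or with arrays left out in the later comparisons.

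**Figure D1:**
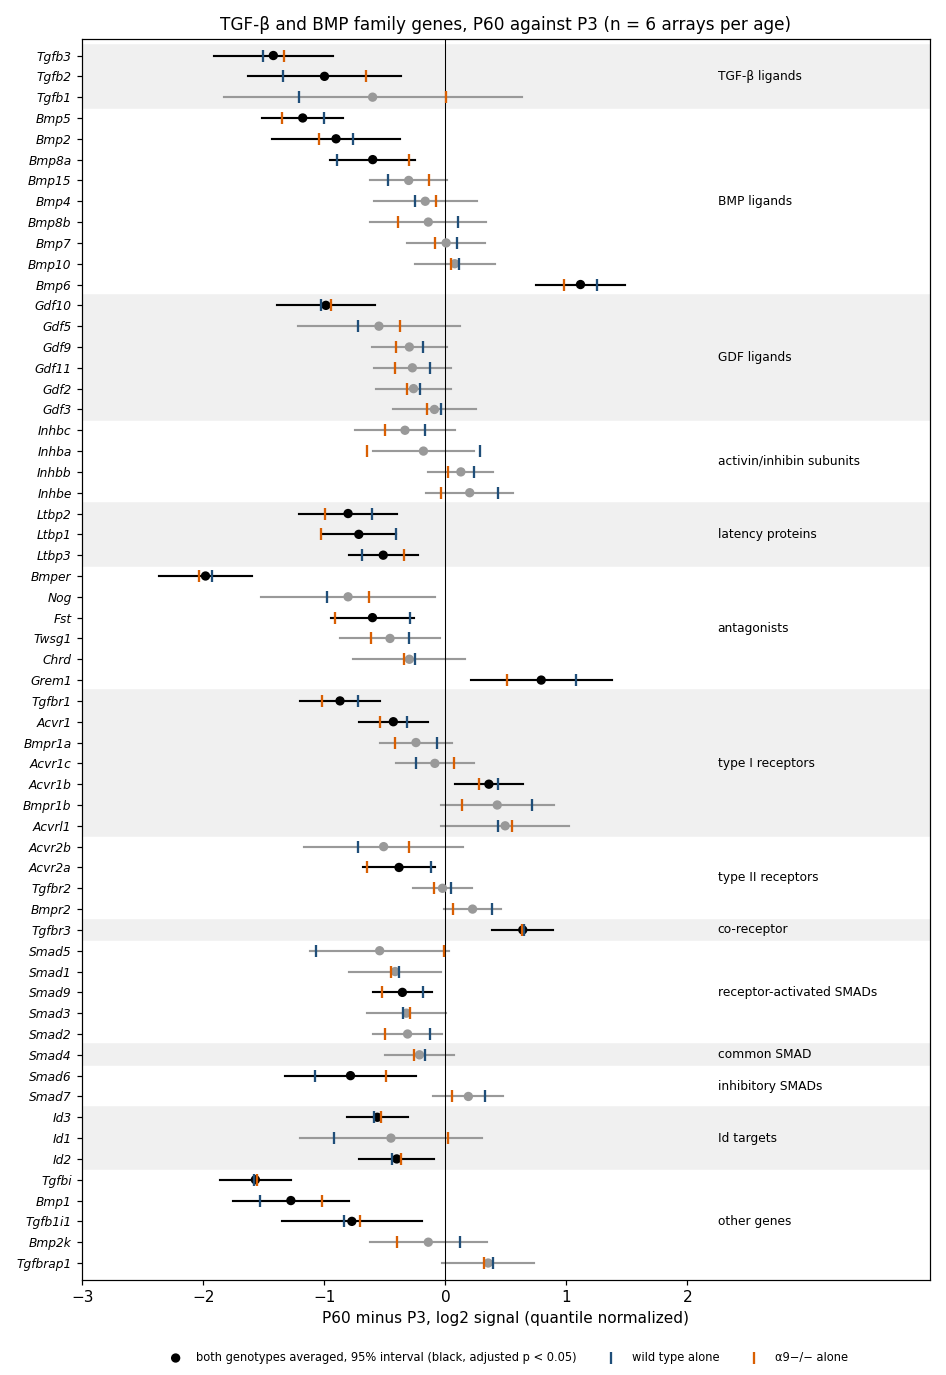
Difference in log2 signal between P60 and P3 for the 59 members, grouped by role. Points are the mean over both genotypes with 95% intervals (limma, 6 arrays per age), black where the adjusted p was under 0.05. Blue and orange ticks give wild type and α9−/− alone. Bmper lies farthest left at -1.98 and Bmp6 farthest right at 1.12.

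The largest fall belonged to Bmper (chromosome 9, 23223076 to 23485215 in GRCm38.p6), a secreted BMP-binding protein related to chordin. Its signal in the 6 arrays at P3 ran from 10.40 to 11.11 with a median of 10.79, and at P60 from 8.16 to 9.63 with a median of 8.72. The ages did not overlap. The difference was -1.98 (SE 0.19, limma adjusted p = 4.81e-08), a 3.95-fold lower signal. Alone, the genotypes gave -1.93 in wild type and -2.04 in α9−/−. At P7 Bmper was still at 10.76 to 11.02, and by P13 it had reached 9.30 to 9.66, so that the P3 and P7 arrays all lay above the P13 arrays.

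Among the TGF-β ligands, Tgfb3 (chromosome 12, 86056743 to 86079041) fell by 1.42 (SE 0.24, limma adjusted p = 6.46e-05). The P3 arrays ran from 9.74 to 10.55 with a median of 10.11 and the P60 arrays from 7.92 to 9.53 with a median of 8.51. Tgfb2 fell by 1.00 (SE 0.30, limma adjusted p = 0.0133), although its arrays overlapped, with 8.84 to 10.50 at P3 and 8.05 to 9.67 at P60. Its other 3 probe sets differed by -0.70 to -1.17. Tgfb1 differed by -0.60 (SE 0.59) and did not pass.

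Of the BMP ligands, Bmp5, Bmp2 and Bmp8a fell and Bmp6 rose. Bmp5, whose loss in mice alters ear cartilage, went from 9.61 to 10.26 at P3 to 8.29 to 9.42 at P60, a difference of -1.18 (SE 0.16, limma adjusted p = 6.47e-06). Its other 2 probe sets differed by -1.19 and -1.89. Bmp2, a strong inducer of bone formation, fell by 0.90 (SE 0.25) and Bmp8a by 0.60 (SE 0.17). Bmp6 (chromosome 13, 38345716 to 38500314), known in adults as a regulator of iron balance, rose by 1.12 (SE 0.18, limma adjusted p = 3.64e-05). Its arrays ran from 8.03 to 9.02 at P3 and from 9.23 to 10.11 at P60, with no overlap, and the medians at P3, P7, P13 and P60 were 8.56, 9.02, 9.47 and 9.63. Bmp4 and Bmp7, the other BMPs best known from inner ear development, differed by -0.17 and 0.01 and did not pass, nor did Bmp15, Bmp8b and Bmp10, at -0.30, -0.14 and 0.08. Of the 6 GDF ligands only Gdf10 (also known as BMP3b) passed, at -0.99 (SE 0.19, limma adjusted p = 0.000382), with Gdf5 at -0.55, Gdf9 at -0.30, Gdf11 at -0.27, Gdf2 at -0.26 and Gdf3 at -0.09. None of the inhibin and activin subunits Inhba, Inhbb, Inhbc and Inhbe did, with differences from -0.33 to 0.20.

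The Ltbp genes fell together. Ltbp2, Ltbp1 and Ltbp3, matrix proteins of the latent TGF-β binding family, differed by -0.80, -0.72 and -0.51 log2 (SE 0.20, 0.15 and 0.14). Ltbp1 fell late, since its P7 arrays were above P3 by 0.48 and its P60 arrays differed from P13 by -0.84 (both passed). Without the 5 arrays the P7 difference was 0.51 and no longer passed (limma adjusted p = 0.0668).

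The antagonists split. Besides Bmper, Fst (follistatin, which binds activins) fell by 0.60 (SE 0.16). Grem1, a BMP antagonist of the DAN group, rose by 0.79 (SE 0.28, limma adjusted p = 0.0318), but the P3 arrays spread from 5.39 to 6.99 across the P60 range of 6.19 to 7.44. Its 2 highest values at P3, 6.99 and 6.79, came from the 2 arrays of low Gapdh 5′ signal. Nog, Chrd and Twsg1 differed by -0.80, -0.30 and -0.46 and did not pass.

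Receptors moved in both directions. Tgfbr3 (betaglycan, the co-receptor that presents TGF-β2, chromosome 5, 107106567 to 107289629) rose by 0.64 (SE 0.12, limma adjusted p = 0.000251). The 6 P60 arrays were tightly placed, from 11.44 to 11.67, above all 6 at P3 (10.71 to 11.28). It dipped first, with 10.11 to 10.60 at P7. Acvr1b, the activin type I receptor ALK4, also fell to P7, by 0.69, and rose by 0.83 from P13 to P60, for a net rise of 0.36 (SE 0.13). Tgfbr1, the type I receptor for TGF-β, fell by 0.87 (SE 0.16), from 10.78 to 11.50 at P3 to 10.06 to 10.80 at P60. Tgfbr2, its partner kinase, differed by -0.02 (95% interval -0.27 to 0.22). Acvr1 and Acvr2a fell by 0.43 and 0.38. Bmpr1a, Bmpr1b and Bmpr2, the dedicated BMP receptors, differed by -0.24, 0.43 and 0.22 and did not pass, nor did Acvr2b, Acvr1c and Acvrl1, at -0.51, -0.09 and 0.49.

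Inside the cell, the inhibitory Smad6 fell by 0.78 (SE 0.26) and Smad9 by 0.36 (SE 0.12). The other SMADs did not pass, with Smad1 at -0.42, Smad2 at -0.31, Smad3 at -0.32, Smad4 at -0.21, Smad5 at -0.54 and Smad7 at 0.19. Of the Id targets, Id3 fell from 11.34 to 11.74 at P3 to 10.75 to 11.22 at P60, without overlap, by 0.56 (SE 0.12, limma adjusted p = 0.000877). Id2 fell by 0.40 (SE 0.15, limma adjusted p = 0.0397), and Id1 differed by -0.45 (SE 0.36). Without the 5 arrays Id2 stood at an adjusted p of 0.0511.

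RefSeq promoter windows of 300 bases, most of them upstream of the annotated start on GRCm38.p6, are given for the 2 Id genes that passed and for the members with the largest fall and rise. Capitals mark matches on either strand to GGCGCC, a GC-rich SMAD motif that is its own reverse complement, and to CAGAC, the short SMAD box. The 2 motifs do not overlap.
Id3, chr4:136143572-136143871, plus strand: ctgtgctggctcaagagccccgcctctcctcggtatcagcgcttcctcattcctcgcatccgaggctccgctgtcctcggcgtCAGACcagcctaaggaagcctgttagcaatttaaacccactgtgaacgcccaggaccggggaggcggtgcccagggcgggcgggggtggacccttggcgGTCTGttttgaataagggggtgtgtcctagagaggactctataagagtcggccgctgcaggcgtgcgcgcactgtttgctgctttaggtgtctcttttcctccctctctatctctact
Id2, chr12:25096043-25096342, minus strand: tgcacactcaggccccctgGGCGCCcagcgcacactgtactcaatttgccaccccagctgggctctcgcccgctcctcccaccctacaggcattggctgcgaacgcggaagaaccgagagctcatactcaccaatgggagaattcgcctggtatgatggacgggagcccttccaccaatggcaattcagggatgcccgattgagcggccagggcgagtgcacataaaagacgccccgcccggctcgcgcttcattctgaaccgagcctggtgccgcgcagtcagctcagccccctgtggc
Bmper, chr9:23222826-23223125, plus strand: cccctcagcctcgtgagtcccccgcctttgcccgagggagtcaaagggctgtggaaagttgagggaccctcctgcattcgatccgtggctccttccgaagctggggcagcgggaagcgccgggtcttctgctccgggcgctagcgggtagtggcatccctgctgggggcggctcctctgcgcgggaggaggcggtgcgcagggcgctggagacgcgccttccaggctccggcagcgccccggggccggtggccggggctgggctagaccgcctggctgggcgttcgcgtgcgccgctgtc
Bmp6, chr13:38345466-38345765, plus strand: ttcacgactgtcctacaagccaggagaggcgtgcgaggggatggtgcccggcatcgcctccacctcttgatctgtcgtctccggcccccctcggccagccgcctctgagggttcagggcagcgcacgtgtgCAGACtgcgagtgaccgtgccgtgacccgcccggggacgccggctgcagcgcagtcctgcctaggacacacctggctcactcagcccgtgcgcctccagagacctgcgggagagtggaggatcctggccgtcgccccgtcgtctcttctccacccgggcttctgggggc
Id3 held 2 CAGAC matches, Id2 held 1 GGCGCC match, Bmp6 held 1 CAGAC match and Bmper held none of either. Of all 32851 windows 11.9% held GGCGCC and 49.6% held CAGAC. Windows were at hand for 43 members, of which 13 held GGCGCC and 23 held CAGAC, or 30.2% and 53.5%, against 13.4% and 53.2% of the 27025 genes with a window. These are letter matches and say nothing of binding.

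The 5 genes outside the signaling roles included some of the largest differences. Tgfbi, a TGF-β-induced matrix protein, fell by 1.57 (SE 0.14, limma adjusted p = 2.78e-08), from 11.54 to 11.99 at P3 to 9.95 to 10.46 at P60, and its other 3 probe sets differed by -1.47 to -1.92. Bmp1, a protease that trims procollagens and cleaves chordin, fell by 1.28 (SE 0.23), and Tgfb1i1, a focal adhesion adaptor, by 0.77 (SE 0.28). Bmp2k and Tgfbrap1 differed by -0.14 and 0.35 and did not pass. Of the 25 called members 13 had another probe set. There were 25 such probe sets, of which 22 had the same sign. When all 34958 probe sets with 1 symbol were tested, 12 of these other probe sets passed, all 12 with the same sign.

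**Figure D2:**
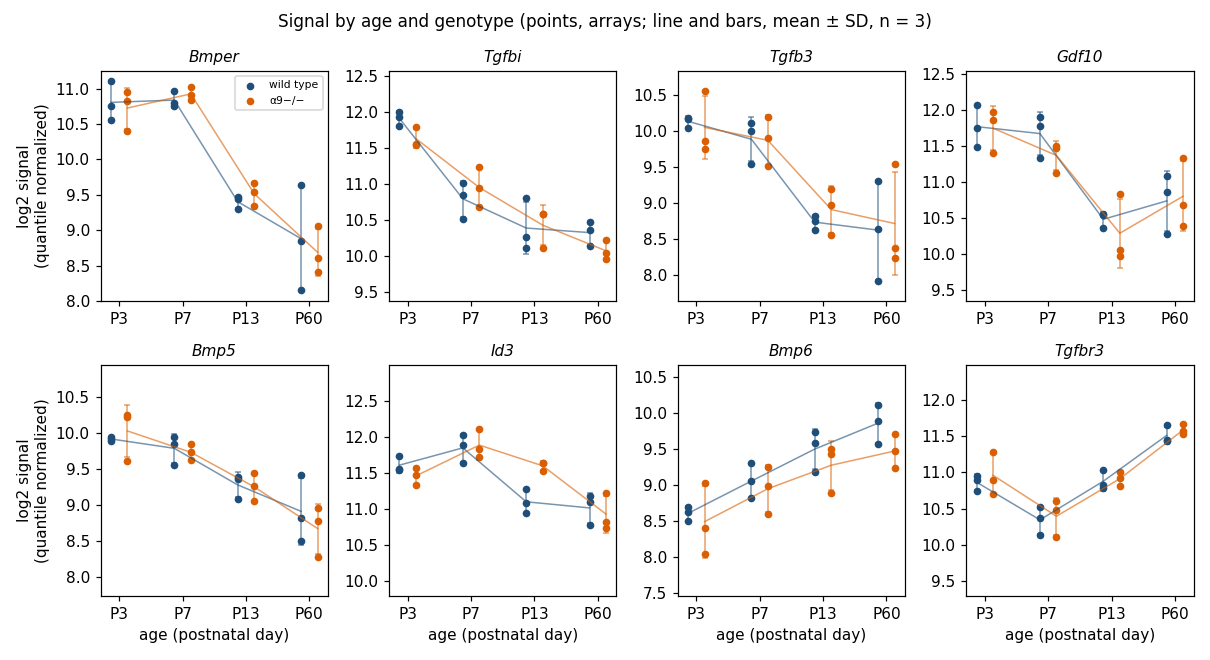
Log2 signal after quantile normalization (vertical axis) against age for 8 members. Points are arrays in wild type (blue) and α9−/− (orange), and lines with bars give the mean ± SD (n = 3). Bmper, Tgfb3 and Gdf10 drop between P7 and P13, Tgfbi is already lower at P7, Bmp6 climbs at each age, and Tgfbr3 dips at P7 before its highest values at P60.

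The decline was not spread evenly over the 3 intervals. From P3 to P7, 4 members were higher and 5 lower, or 6.78% and 8.5% of the members, beside 4.04% and 6.27% of all genes. Bmp8a, Gdf3, Ltbp1 and Smad7 rose by 0.71, 0.60, 0.48 and 0.45, and Tgfbi, Fst, Acvr2a, Acvr1b and Tgfbr3 fell by 0.90, 0.81, 0.78, 0.69 and 0.55. On the deposited scale, where the median of all genes itself shifted by 0.11, the split was 8 higher and 5 lower. Tgfb1 differed by 1.82 (SE 0.59) and did not pass at an adjusted p of 0.0542. Without the 5 arrays 12 members passed, 6 of them shared. Bmp8a, Ltbp1 and Smad7 were lost, at 0.61, 0.51 and 0.41 and limma adjusted p of 0.0545, 0.0668 and 0.0832. Tgfb1 then passed, at 1.27 (SE 0.38, limma adjusted p = 0.037), as did Grem1 at 1.19, Bmp6 at 0.61, Bmp2k at 0.58 and Inhbb at 0.40, and Tgfb2 passed as lower.

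From P7 to P13, as hearing begins, 1 member rose and 18 fell, or 1.7% and 30.5%, beside 14.5% and 10.1% of all genes. Tgfbr3 was the riser, at 0.53 (SE 0.12). Ligands supplied 8 of the falls, with Tgfb1 at -2.40 (SE 0.59), Gdf10 at -1.13 (SE 0.19), Tgfb3 at -1.06 (SE 0.24), Tgfb2 at -0.99 (SE 0.30), Bmp2 at -0.82, Bmp4 at -0.57, Bmp8a at -0.52 and Bmp5 at -0.49. Nog (noggin) fell by 1.57 (SE 0.34) and Bmper by 1.42 (SE 0.19). Smad5, Smad6 and Smad9 fell by 0.99, 0.79 and 0.63, and Id3 by 0.52. This split depends on the scale. The deposited values gave 10 higher and 7 lower, with the median of all genes at 0.23 rather than 0.01, whereas centring each array on its median gave 1 higher and 15 lower. Relative to those medians the members' median was lower by either route, at -0.25 after quantile normalization and at -0.02 on the deposited scale. Without the 5 arrays 16 members passed, 14 of them shared, and Tgfb2, Bmp4, Bmp1, Bmp8a and Tgfb1i1 no longer did, while Smad1 and Smad3 did. In the same step 7 of 12 cartilage markers and 2 of 8 osteoblast and osteocyte markers were lower, and 10 of 10 neutrophil markers were higher.

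For Tgfb1 the step lay mostly in the wild type arrays. At P7 the gene read 10.62, 9.85 and 11.09 in wild type and 9.87, 9.98 and 10.68 in α9−/−. At P13 it read 6.80, 5.01 and 7.31 in wild type and 10.08, 9.34 and 9.14 in α9−/−. Every P13 wild type array lay below every P7 array by more than 2, and the α9−/− ranges of P7 and P13 overlapped. Its other probe set, 1445360_at, did not follow, as the deposited P13 values of 6.34, 6.46 and 6.76 in wild type were not below the P7 values of 6.27, 5.92 and 6.26. After quantile normalization, every P13 wild type array of Tgfb2, Bmp4, Bmp8a, Smad5 and Smad6 also lay below every P7 array. The α9−/− ranges of P7 and P13 overlapped for these genes except Smad5. Bmp4 in α9−/− read 8.66, 9.39 and 8.98 at P7 and 9.09, 8.74 and 9.08 at P13. The other falls named for this step (Gdf10, Tgfb3, Bmp2, Bmp5, Nog, Bmper, Smad9 and Id3) did not overlap in α9−/−. No member passed the direct test for a genotype difference given below.

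From P13 to P60, 3 members rose and 12 fell, or 5.1% and 20.3%, beside 13.5% and 16.1% of all genes. The risers were the receptors Acvr1b (0.83, SE 0.13), Acvrl1 (0.82, SE 0.25) and Tgfbr3 (0.66, SE 0.12). The largest falls were those of Bmp2k (-0.85, SE 0.23), Ltbp1 (-0.84, SE 0.15), Bmp8a (-0.79, SE 0.17) and Bmp1 (-0.73, SE 0.23), followed by Tgfbr1 at -0.69 and Bmper at -0.68. Deposited values gave 2 higher and 29 lower, as the median of all genes there moved by -0.38, against -0.06 after quantile normalization. Without the 5 arrays 11 members passed, 10 of them shared, Smad6 was gained, and Bmp1, Bmp5, Gdf9, Id3 and Inhbc were lost. Each step shares its arrays with its neighbour, so values in adjoining steps are not independent.

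**Figure D3:**
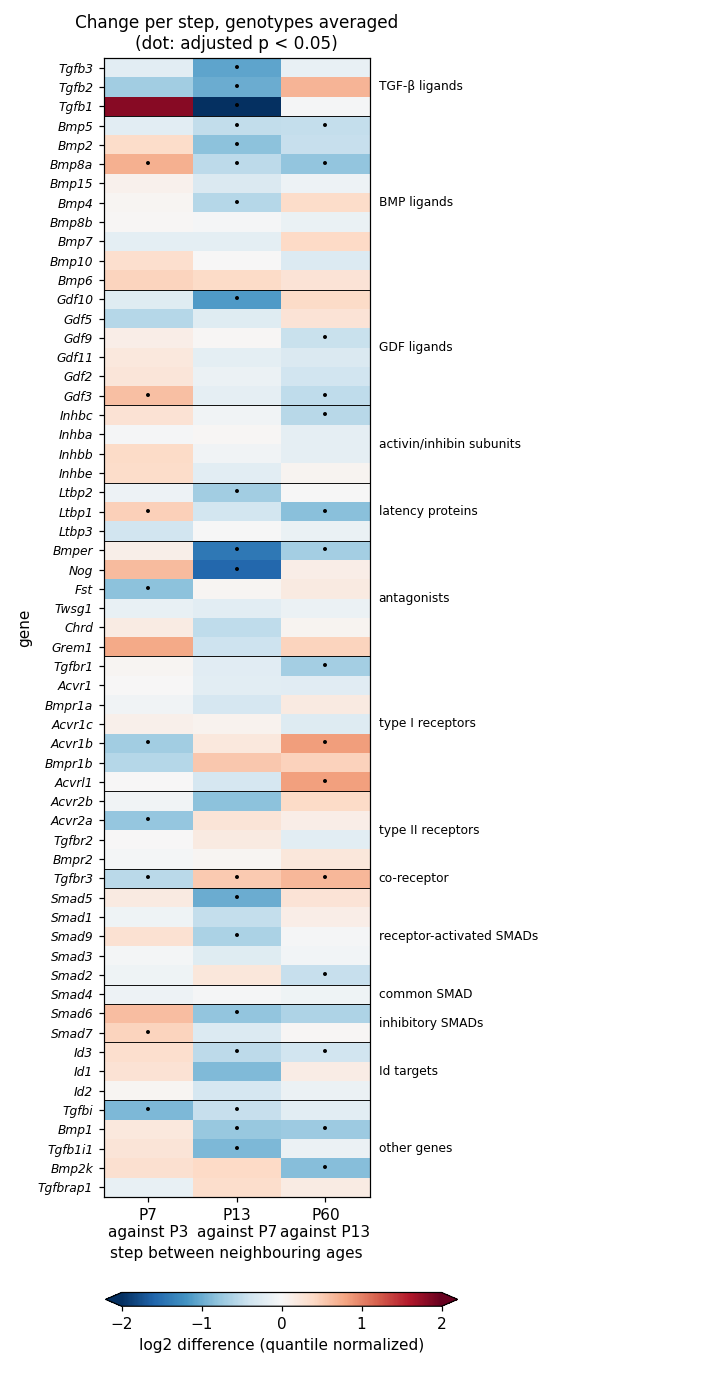
Log2 difference of each member over the 3 steps between neighbouring ages, genotypes averaged and quantile normalized, with red higher and blue lower at the later age. Dots mark an adjusted p under 0.05. The blue cells gather in the middle column, P13 against P7, which holds 18 of the lower calls.

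Genes of other tissues changed over the same interval. Of 12 cartilage markers 10 were lower at P60 than at P3 and 0 higher, and their mean log2 signal ran from 10.36 to 11.84 over the P3 arrays and from 7.77 to 8.14 over the P60 arrays. Osteoblast and osteocyte markers were lower for 6 of 8, at 11.47 to 11.76 against 10.46 to 10.84. Skeletal muscle markers were higher for 6 of 10, at 7.64 to 10.32 against 9.59 to 12.35, and cerebellar markers for 8 of 10, at 7.08 to 7.75 against higher values of up to 11.43. All 10 neutrophil markers rose, from 6.85 to 8.17 at P3 to 11.45 to 11.96 at P60. Within the cochlea 7 of 9 stria vascularis markers rose, and supporting cell and tectorial membrane markers rose for 2 of 10 and fell for 4. Their part in the family's changes was not tested.

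Pathway genes outside the symbol rule were read from lists chosen with earlier results of these data known. Of 91 such genes 11% were higher and 36.3% lower at P60 than at P3, beside the 16.9% and 18.8% of all genes. Among 14 genes of latency, activation and matrix 7 were lower at P60 than at P3 and 0 higher, with a median of -0.77. Fbn2 and Emilin1, matrix proteins of the microfibril and elastic fiber, fell by 4.36 and 2.35. Of 21 target genes 11 fell and 1 rose, with a median of -0.66. The 11 included the collagens Col1a1 (-1.42) and Col1a2 (-0.91), the transcription factors Snai2 (-1.47) and Dlx5 (-1.83) and the matrix gene Postn (-1.74), all of which bone or connective tissue also expresses, and the riser was Ccn2 (0.55). Of 24 intracellular regulators 5 rose and 7 fell (20.8% and 29.2%), with Tgif2, a SMAD corepressor, at -1.46. Of 10 co-receptors and pseudoreceptors 2 rose and 3 fell (20% and 30%), and the pseudoreceptor Bambi was at -1.50. Of 17 extracellular inhibitors and binders, a list that also holds Bmper, 1 rose and 6 fell, with Fstl1 at -1.31. Of 6 other ligands 1 rose, Lefty1 at 0.66.

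In wild type alone, 2 members rose and 12 fell between P3 and P60 (3.39% and 20.3%, beside 12.8% and 9.5% of all genes). In α9−/− alone, 2 rose and 15 fell (3.39% and 25.4%, beside 9.49% and 13% of all genes). The 2 lists shared 10 genes with the same sign, or 71.4% of the wild type list and 58.8% of the α9−/− list. Over all genes those shares were 67.8% and 67.2%. Whether an age step differed between the genotypes was tested directly. Of 177 tests, 59 members by 3 steps, 0 passed (limma), and 8 had an unadjusted p under 0.05. Over all 18194 genes the unadjusted counts were 66 higher and 137 lower for P7 against P3. They were 303 and 1012 for P13 against P7, and 412 and 227 for P60 against P13. The largest among the members was Tgfb1 from P7 to P13, with a difference of differences of 3.49 (SE 1.18, limma adjusted p = 0.654). With array weights, which limma estimates to give noisy arrays less influence, 21 of the 177 passed. How many of all genes passed with those weights was not counted, so the 21 show nothing particular to the family.

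Few members separated the genotypes. α9−/− was set against wild type within each age on the deposited log2 scale. At P3, P7 and P60, 0 of 59 members passed in either direction (limma), beside 0% higher and 0.0165% lower of all genes at P3 and 0% in both directions at P7 and P60. Over the 59 members the differences ran from -0.64 to 0.50 at P3, from -0.48 to 0.37 at P7 and from -0.71 to 0.81 at P60. At an unadjusted p under 0.05 there were 0, 0 and 1 members. Over all 18194 genes there were 230 higher and 74 lower at P3, 134 and 140 at P7, and 111 and 554 at P60. Among the members the smallest p at P3 belonged to Ltbp1, with a difference of 0.50. It was followed by Bmp1 (-0.47), Bmp8a (-0.42) and Tgfb2 (-0.53). At P7 it belonged to Grem1 (-0.48), followed by Tgfbr2 (-0.24), Gdf10 (-0.31) and Inhbe (-0.32). Bmp8b was the member at P60, with -0.57 (SE 0.21, limma adjusted p = 0.939), followed by Inhba (-0.71), Fst (-0.49) and Bmp6 (-0.39). Some intervals were wide, as for Id1 at P60, with 0.81 (95% interval -0.69 to 2.30), and Tgfb1, with 0.70 (95% interval -1.70 to 3.10).

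At P13, 3 members were higher in α9−/− and 0 lower, or 5.1% and 0%, beside 1.09% and 2.92% of all genes. They were Tgfb1 and Bmp4, both ligands, and Smad5, a receptor-activated SMAD of the BMP branch. The unadjusted test gave 7 higher and 6 lower of the 59 members, beside 1217 higher and 4013 lower of all 18194 genes. The median over all genes was itself -0.22 at this age (-0.19 after quantile normalization over all arrays), and that over the members was -0.08.

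Tgfb1 (chromosome 7, 25687002 to 25705077, probe set 1420653_at) read 6.87, 5.24 and 7.53 in the wild type arrays and 10.33, 9.61 and 9.38 in the α9−/− arrays. The genotypes were well apart, at 6.55 ± 1.18 and 9.77 ± 0.49 (SD, n = 3), with a difference of 3.22 (SE 0.55, limma adjusted p = 0.0357), or 9.34-fold. Smad5 read 7.69, 8.30 and 8.85 in wild type and 9.67, 9.67 and 9.55 in α9−/−, a difference of 1.35 (SE 0.28, limma adjusted p = 0.0456). Bmp4 read 7.79, 7.99 and 8.28 in wild type and 9.32, 8.99 and 9.32 in α9−/−, a difference of 1.19 (SE 0.19, limma adjusted p = 0.0334). Id1, Tgfb2 and Smad6 did not pass, with differences of 1.53, 1.49 and 1.23 and adjusted p of 0.0565, 0.0621 and 0.058 (limma). Among the members lower in α9−/−, Bmp2k had the largest difference, -0.70, and did not pass.

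Within a genotype, the same members were also low in the arrays of low Gapdh 5′ signal at other ages. Wild type replicates 1 and 2 at P13 exceeded 6 on the Gapdh 3′ minus 5′ measure, replicate 3 stood at 2.43, and the α9−/− arrays at -0.15 to 0.34. At P60 the wild type array of low 5′ signal read 5.08 for Tgfb1, and the other 2 wild type arrays 8.34 and 9.15. At P3 the α9−/− array of low 5′ signal read 6.96, and the other 2 α9−/− arrays 8.53 and 8.98. Smad5 in those groups read 7.95 against 9.19 and 8.94, and 7.80 against 9.78 and 9.76. Averaged over replicates, Tgfb1 in the low array or arrays differed from the rest of its group by -1.45, -1.79, -1.48 and -3.67 in the 4 groups that held any (P3 wild type, P3 α9−/−, P13 wild type and P60 wild type), and Id1 by -0.95, -1.26, -1.31 and -2.48. In the same order of groups Smad5 differed by -0.48, -1.96, -0.85 and -1.12, and Bmp4 by -0.47, -0.67, -0.385 and -1.06. Of the 59 members 3, namely Tgfb1, Id1 and Nog, were lower by over 0.5 log2 in all 4 groups (5.08%), as were 2.54% of all genes.

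**Figure D4:**
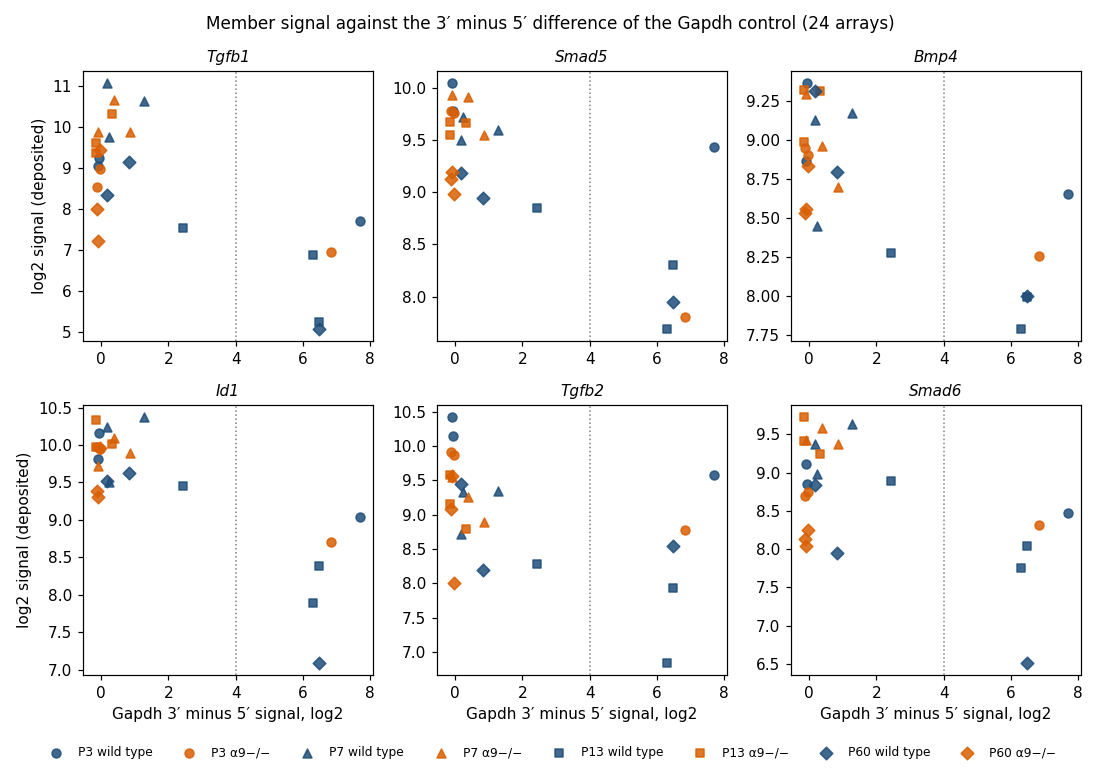
Deposited log2 signal of 6 members (vertical axes) against the log2 difference between the Gapdh 3′ and 5′ control probe sets (horizontal axes) in all 24 arrays. Shapes mark age, blue is wild type, orange is α9−/−, and the dotted line at 4 sets apart the 5 arrays of low 5′ signal. Of the 3 P13 wild type arrays (blue squares) 2 lie right of the line, beside 1 P60 wild type array and 1 P3 array of each genotype, and the third lies left of it at 2.43, where Id1 read 9.45.

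With the 2 wild type arrays of low 5′ signal left out at P13, which leaves 1 wild type array assumed to vary like the α9−/− arrays, 0 members passed, and the differences were 2.24 for Tgfb1, 0.93 for Bmp4 and 0.78 for Smad5. Leaving out wild type replicate 1 or 2 or any α9−/− array also left 0, and leaving out wild type replicate 3 gave 8, with 7 higher and 1 lower. With 1 array left out the differences stayed at 2.57 to 3.72 for Tgfb1, 1.06 to 1.63 for Smad5 and 1.08 to 1.32 for Bmp4. A fit over all 24 arrays with a shared spread gave 0. Within the pair of P13 arrays that carried poly-A control transcripts the α9−/− array exceeded wild type by 3.46 for Tgfb1, 1.97 for Smad5 and 1.53 for Bmp4, and among the 4 arrays without them by 3.11, 1.04 and 1.02. The low 5′ signal and genotype cannot be told apart at P13.

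Other probe sets of the same genes gave a further view of P13. When all 34958 probe sets with 1 symbol were tested, 15 of the family's 126 were higher in α9−/− and 0 lower, beside 3.79% and 2.33% of the table. Some of them contradicted the probe set chosen for the gene. Tgfbr1 differed by -0.21 on its brightest probe set, 1420895_at, and by 3.10 and 2.59 on 1420894_at and 1420893_a_at. On 1420894_at the wild type arrays read 4.18, 4.31 and 4.60 and the α9−/− arrays 7.52, 7.46 and 7.40. The same probe set read 3.28 in the P3 wild type array of low 5′ signal against 7.95 and 7.94 in the other 2, and 3.39 in the corresponding P3 α9−/− array against 7.98 and 7.43. It was also low in P7 wild type replicate 1, at 3.90, where the Gapdh difference was 1.27, and in P60 wild type replicate 3, at 3.72, where it was 0.82. Tgfbr2 behaved alike, with -0.08 on 1426397_at and 2.54 on 1425444_a_at, and Twsg1 with 0.03 on 1450388_s_at and 2.29 on 1426179_a_at. With the mean over all probe sets of a gene, 11 of 28 named members changed sign at P13, 10 of them from negative to positive. For Tgfb1 the order was the opposite, as its second probe set differed by 0.28 (SE 0.22) and did not pass. Where the probes lie along each transcript was not analysed here.

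Cell type markers at P13, as mean log2 signals after quantile normalization, are given beside these values. The mean over 10 cerebellar markers ran from 6.62 to 9.16 in wild type and from 6.23 to 7.82 in α9−/−, and that over 10 skeletal muscle markers from 7.64 to 10.26 and from 7.73 to 7.86, with 1 muscle marker called lower. The neutrophil list stood at 12.02 to 12.49 in wild type and 11.45 to 11.75 in α9−/−, without overlap, and 3 of its 10 genes were called lower. Of the 14 marker lists 3 more did not overlap, with fibrocyte markers at 11.34 to 11.98 in wild type and 11.99 to 12.49 in α9−/−, Schwann cell markers at 10.48 to 10.69 and 10.76 to 11.13 (wild type first), and keratinocyte markers at 5.86 to 6.28 and 5.61 to 5.76. Cartilage markers overlapped, at 9.31 to 9.50 and 9.24 to 9.90, with 1 of 12 called higher. How often single genes did not overlap between the genotypes at P13 was not counted. No difference in cell content is therefore read from these lists. The part of these cell types in the 3 calls was not tested. Of the 91 pathway genes outside the family 3 passed at P13 (3.3%, beside 1.09% higher and 2.92% lower of all genes). Crim1, a membrane BMP-binding protein, Eng (endoglin) and Junb were higher in α9−/− by 2.66, 1.21 and 0.99.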

How the data were processed

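Cochlear RNA was hybridized to Affymetrix whole-genome mouse arrays. The authors deposited log2 signals after RMA background correction, quantile normalization and a Tukey biweight probe summary in AffyPLM, so array depth does not apply and the 3 pools per group limit precision. Genes were named through the platform annotation (34958 probe sets with 1 symbol, 932 with several, 9211 with none), and members, gene lists and tests were chosen with earlier results of these data known. limma 3.58.1 (R 4.3.3) was fitted on 18194 genes, 1 probe set each, with Benjamini-Hochberg adjustment over all of them and a threshold of 0.05. Genotypes were compared within each age on 6 arrays without a fold threshold. Ages were compared over 24 arrays in 8 groups after quantile normalization over all arrays, averaging the genotypes. Named whatever their values, for P60 against P3, were Tgfb1 to Tgfb3, Tgfbr1 to Tgfbr3, Bmp2, Bmp4 to Bmp7, Bmpr1a, Bmpr1b, Bmpr2, Smad1 to Smad7, Id1 to Id3, Nog, Chrd, Grem1 and Fst, and beyond them the 8 largest calls per direction for P60 against P3, the 4 largest per step and up to 6 per age for genotype, or the 4 smallest p where none passed. A further few were picked after their values were seen. Fits were tested on simulated data. Alternatives covered scaling, filters, weights, blocks, probe set choice and left-out arrays. Promoter sequences are from RefSeq.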

Additional observations from a re-analysis of the deposited data

How the results depend on the processing

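Counts in this section are of members alone, without the share of all genes under the same setting. A changed count is therefore not read as particular to the family. Counts of members passing at P3, P7 and P60 between genotypes stayed at 0 under every alternative run. At P13 the count of 3 became 5 among genes above the median signal and 5 with each array centred on its median, 1 with the methods' fold threshold, 0 with a shared spread, 0 once arrays of low Gapdh 5′ signal were left out, 8 with the poly-A controls as a block, 9 with the mean over all probe sets of a gene and 21 with array weights (10 higher, 11 lower), and leaving out 1 array gave 0 to 8. For P7 against P3 the main 9 became 20 with array weights, 0 with a log2 difference over 1 as well, 2 in wild type arrays only and 3 in α9−/− arrays only. For P13 against P7 the 19 became 35, 5 and 2 with array weights, the log2 threshold and α9−/− arrays only. For P60 against P13 the 15 became 31 on deposited values, 29 with array weights, 0 with the log2 threshold and 7 in α9−/− arrays only. For P60 against P3 the 25 became 41 with array weights, 6 with the log2 threshold and 14 in wild type arrays only. Leaving out 1 array gave 6 to 9, 13 to 18, 10 to 17 and 20 to 27 in these 4 comparisons. The interaction count stayed at 0 except for 21 with array weights, an alternative added after seeing the data. Of 4893 values of named genes under the alternatives 338 changed sign, 334 of them called neither before nor after. The other 4 were Tgfbr1 1.83, Tgfbr2 0.77 and Bmp7 0.77 at P13 with the mean over all probe sets, and Tgfb1 0.78 for P60 against P13 with array weights. An added threshold on the log2 difference can only lower a count. The cause of the other changes was not tested. Whether replicate numbers pair the arrays was not settled. Same-numbered arrays of the 2 genotypes correlated at -0.39 to 0.62, and arrays of different numbers at -0.52 to 0.54. The replicate block gave 3 calls at P13, 2 of them shared with the main 3, and changed no count by over 1.5 times. The poly-A block at P60 and the removal of low 5′ arrays at P7 gave no value, as all or no arrays there were affected.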
